A study of Mus musculus with 18 samples.

Results

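The mouse genome holds 39 Hox genes in 4 clusters, and all 39 were found in the deposited table of whole spinal cord RNA. They were picked by name: any locus whose symbol, or 1 part of a comma-joined symbol, was Hox followed by a cluster letter from a to d and a number. They filled 28 of the table's 58570 loci, 9 for HoxA (11 genes), 6 for HoxB (10 genes), 6 for HoxC (9 genes) and 7 for HoxD (9 genes). Of these rows, 21 held a single gene and 7 joined several, and 18 Hox genes could be read only as part of a joined row.

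The study compared whole spinal cords of SMNdelta7 mice, a model of spinal muscular atrophy (SMA), at postnatal days 2, 6 and 10 (P2, P6, P10). Homozygotes are the SMA group and heterozygotes the control group, with 3 labelled libraries in each of the 6 groups and 18 libraries in all. As background, mice of this line carry a human SMN2 transgene and an SMN cDNA without exon 7 over a disrupted mouse Smn1, so the controls also carry the transgenes and a disrupted Smn1 copy. Litter, sex and any pooling of animals are not given in the labels, so libraries of a group may share a source. Total RNA was depleted of ribosomal RNA before sequencing. The table gives 1 combined value per group, in FPKM (fragments scaled to transcript length and to library depth), with a model interval but no value per library. No spread between mice was therefore computed here. Errors below are the model's standard errors taken from that interval, except in the fit over all 6 groups. There they come from the scatter of the group values.

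Hox genes encode homeodomain transcription factors that give cells their position along the head-to-tail axis. Within a cluster they lie in the order of their paralog numbers: low numbers are used from the hindbrain downward, middle numbers in cervical and thoracic cord, and high numbers in lumbar and sacral cord. In the spinal cord they set motor neuron columns and pools, Hox5 genes for the phrenic column, Hox6, Hox9 and Hox10 genes for brachial, thoracic and lumbar identity. They bind DNA with Pbx and Meis partners, their silence outside their domains is kept by Polycomb proteins, and their transcripts are targets of microRNAs encoded within the clusters.

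The microRNAs of the clusters are shown first because 3 of the joined rows include one of their genes. Mature sequences are RefSeq entries on GRCm38.p6, with the seed (bases 2 to 8) in capitals.
miR-10a-5p, chr11:96317186-96317208, + strand, in the HoxB cluster: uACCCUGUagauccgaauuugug
miR-10b-5p, chr2:74726074-74726096, + strand, in the HoxD cluster: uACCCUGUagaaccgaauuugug
miR-196a-5p, chr11:96265187-96265208, + strand, in the HoxB cluster (a second copy lies in HoxC at chr15:102973365-102973386): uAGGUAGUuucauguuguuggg
miR-196b-5p, chr6:52230129-52230150, - strand, in the HoxA cluster: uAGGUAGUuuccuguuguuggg
miR-615-3p, chr15:103014969-103014990, + strand, in the HoxC cluster: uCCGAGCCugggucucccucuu
miR-10a and miR-10b share the seed ACCCUGU, and miR-196a and miR-196b share AGGUAGU. The 3' UTR (untranslated region) of Hoxb8, a paralog group 8 gene, is the textbook target of miR-196a, and its site pairs with 21 of the 22 bases of the microRNA, all but position 5 counted from the microRNA's 5' end. In the site, capitals mark the bases that pair by Watson-Crick rules.
Hoxb8 site, GRCm38 chr11:96284888-96284909, + strand: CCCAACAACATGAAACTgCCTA
Among 20916 mouse 3' UTRs of at least the microRNA's length, Hoxb8 was the only gene with so long an ungapped match, and the next Hox gene, Hoxd8, had 15 paired bases. The 8 letters ACTACCTA, the match to the miR-196 seed followed by A, stood in the 3' UTR of 5 of 39 Hox genes (Hoxa5, Hoxa7, Hoxb6, Hoxb7 and Hoxc8; 12.8%) and of 1.27% of 21022 genes. The letters ACAGGGTA, for miR-10, stood in those of Hoxa3, Hoxb3 and Hoxd1 (7.69%), beside 2.08% of all genes. FPKM of host transcripts says nothing about the mature microRNAs, which were not measured here.

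Before the values, 1 label needs a remark. Smn1, the gene disrupted in homozygotes, was at 2.70, 4.46 and 3.54 FPKM in control cords at P2, P6 and P10. It was at 0.0210 FPKM in SMA cords at P2 and listed at 0 at P6, but at 2.82 FPKM in the group labelled SMA at P10, which therefore goes against its label. Every direction drawn from that group below rests on the label alone. The groups had similar totals of estimated fragments, 6881671 to 7386338, and 18031 to 19336 loci at 1 FPKM or more. How these fragments were scaled is not given, so their totals do not show sequencing depth. Markers of the hindbrain, the tissue just above the cord, were near 0 throughout: the 8 markers summed to 0.710 to 1.36 FPKM in each group, with 1 to 4 of them listed at 0.

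Hox transcripts were plentiful at every age. Summed over the 28 rows, they came to 349, 256 and 235 FPKM in control cords by age (P2, P6, P10) and to 294, 281 and 255 FPKM in SMA cords. HoxB gave the largest share of the sum in every group, 33.3% to 38.5%, followed by HoxA with 24.4% to 25.9%, while HoxC gave 19.3% to 20.8% and HoxD 15.8% to 19.9%. That ranking depended on the rows and the unit: with joined rows left out HoxA gave the largest share in every group (34.9% to 39.1%), and by deposited counts, which longer transcripts raise, HoxC did (42.4% to 47.8%). Of the 28 rows, 22 reached 1 FPKM in at least 1 group and 19 did so in all 6. Among the rows under 1 FPKM everywhere were Hoxb1 and Hoxd1 at the head end of their clusters and Hoxa13, Hoxd12 and Hoxd13 at the tail end. Levels in FPKM are per transcript length, so rows can be set beside each other, although a joined row's length mixes several genes.

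**Figure D1:**
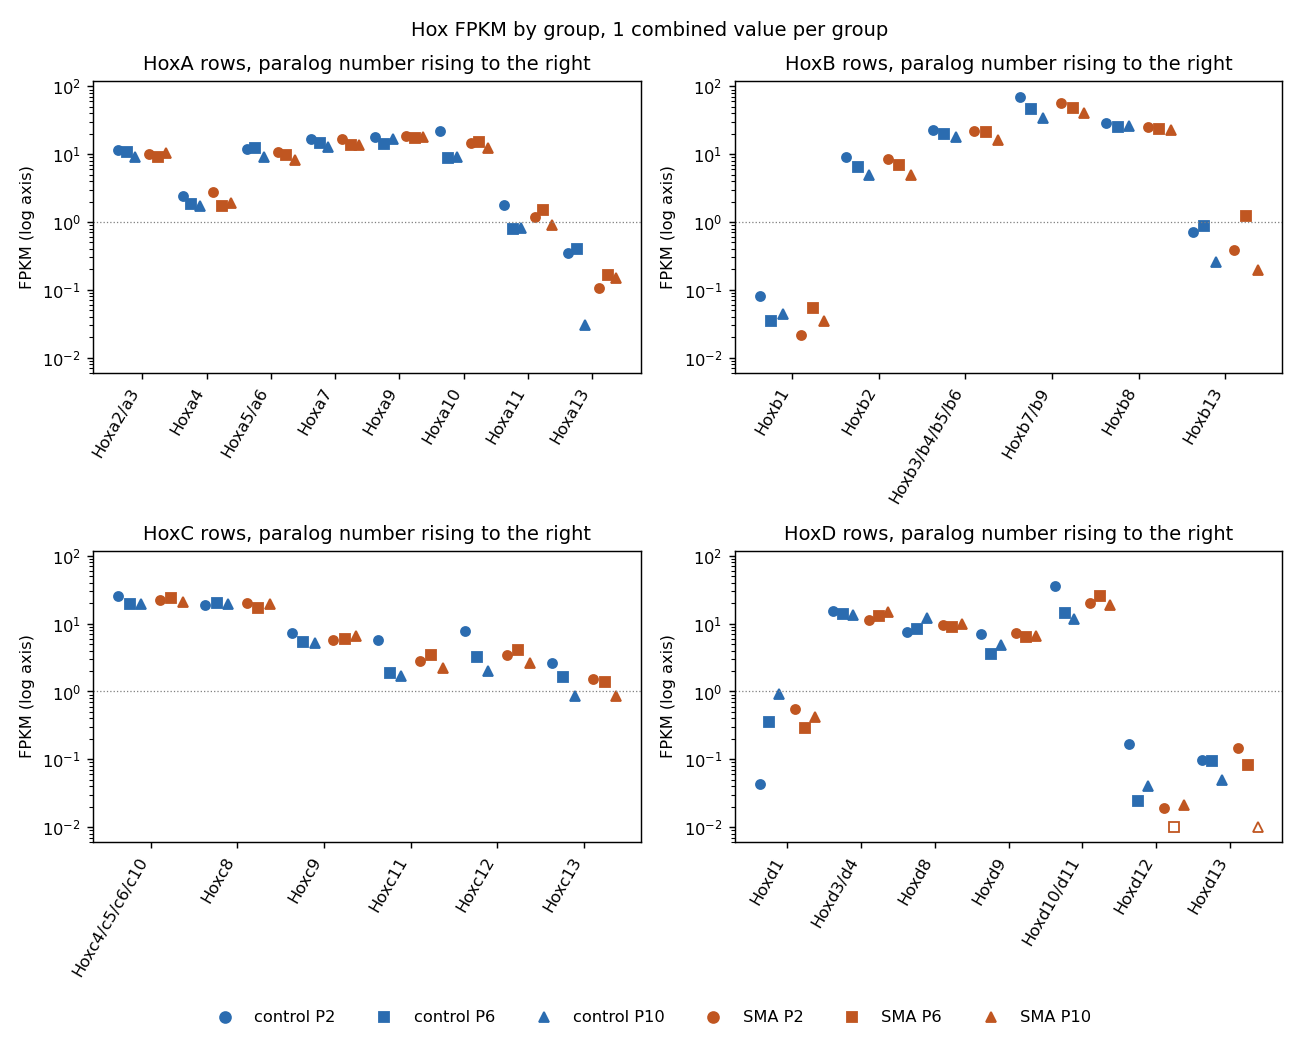
FPKM of Hox rows (log axis) in the 6 groups, 1 panel per cluster with the lowest paralog number of a row rising to the right; blue is control, orange SMA, circles P2, squares P6 and triangles P10, each point 1 combined value. Open symbols stand for values under 0.01 FPKM (1 of them 0), drawn at 0.01, and the dotted line marks 1 FPKM. The points of Hoxc8, Hoxb8 and Hoxa9 are nearly level, and the blue circles of Hoxa10, Hoxc11, Hoxc12 and Hoxd10/d11 stand above their other points.

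Joined rows need care, since their genes cannot be read apart. The row of Hoxb7 and Hoxb9, with the gene model Gm53, was the highest Hox row in every group, at 68.7, 46.0 and 33.7 FPKM in control and 57.3, 48.2 and 41.1 FPKM in SMA cords at P2, P6 and P10. The row of Hoxc4, Hoxc5, Hoxc6 and Hoxc10, with Mir615, averaged 22.0 FPKM over the groups and spans paralog groups 4 to 10. The row of Hoxd10 and Hoxd11, with Gm28309, averaged 21.2 FPKM. In GENCODE M21, on GRCm38, the build that the submitters' processing notes name, Gm28309 shares 104 exon bases with Hoxd10 and 455 with Hoxd11 on the same strand.

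The row of Hoxb3, Hoxb4, Hoxb5 and Hoxb6, with Mir10a, averaged 20.0 FPKM. The row of Hoxd3 and Hoxd4, with Gm28230 and Mir10b, averaged 13.7 FPKM, and its Hox genes share 388 exon bases with each other. The 2 remaining joined rows lie in HoxA, Hoxa5 with Hoxa6 at a mean of 10.3 FPKM and Hoxa2 with Hoxa3 and Gm28308 at 10.1 FPKM. Hoxc10 shares 166 exon bases with Hoxc5, so the lumbar gene Hoxc10 has no value of its own here.

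The head-end genes were scarce apart from paralog groups 2 and 3. Paralog group 1 genes, used in the hindbrain, included Hoxd1 at a mean of 0.432 FPKM and Hoxb1 at 0.0449 FPKM, the lowest of the HoxB rows. Hoxb2 was at 8.97, 6.51 and 4.95 FPKM in control cords at P2, P6 and P10. In SMA cords it was at 8.62, 6.85 and 4.88 FPKM. Hoxb2 was thus lower at each later age in both genotypes, with the 2 genotypes close at every age, but its model error was wide (log2 ratio of P10 to P2 -0.86 in control and -0.82 ± 2.08 in SMA cords).

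Rows of paralog groups 4 to 9 gave 53.8% to 60.1% of the summed Hox FPKM, and some of them hardly varied while others did. The row of Hoxb7 and Hoxb9 ranged by 2.04-fold over the 6 groups and Hoxd9 by 2.01-fold. Paralog group 8 was almost level: its 3 single-gene rows summed to 55.4, 54.2 and 57.1 FPKM in control and 55.0, 50.1 and 51.9 FPKM in SMA cords at P2, P6 and P10. Hoxb8, with the miR-196a site above, was its highest member at 22.5 to 28.7 FPKM, and no row varied less across the 6 groups than Hoxc8, by 1.19-fold between its lowest and highest value. Hoxd8 was the exception in direction, at 7.57, 8.22 and 11.96 FPKM in control cords by age. It was the single-gene row with the highest log2 ratio of control P10 to P2 (0.66 ± 1.62).

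Paralog groups 4 and 7 were read alone only in HoxA, Hoxa4 at a mean of 2.05 FPKM and Hoxa7 at 14.7 FPKM. In paralog group 9, which marks thoracic cord, Hoxa9 was highest with a mean of 17.1 FPKM and ranged by 1.28-fold. Hoxc9 averaged 6.03 FPKM. Hoxd9, next to Hoxd10 on chromosome 2, was at 7.06, 3.59 and 4.87 FPKM in control and 7.21, 6.44 and 6.55 FPKM in SMA cords, so its control values at P6 and P10 were the low ones.

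Toward the tail end, levels were lower. Hoxa10, the highest single row of paralog group 10 and a gene of lumbar motor neurons, averaged 13.7 FPKM. Paralog group 11 had Hoxc11 at 2.98 and Hoxa11 at 1.16 FPKM, and paralog group 12 had Hoxc12 at 3.85 and Hoxd12 at 0.0472 FPKM, the lowest HoxD row. Paralog group 13, used at the tail tip, had Hoxc13 at 1.49, Hoxb13 at 0.614, Hoxa13 at 0.201 and Hoxd13 at 0.0791 FPKM. Hoxa13 was the lowest HoxA row and Hoxc13 the lowest HoxC row by mean.

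Of the 19 rows at 1 FPKM or more in every group, those with the widest fold between their lowest and highest group were Hoxc12 (3.91-fold), Hoxc11 (3.42), Hoxd10 with Hoxd11 (3.07) and Hoxa10 (2.44), all lumbosacral; among the scarcer rows Hoxd1 ranged further, from 0.0434 to 0.922 FPKM. Hoxc12 (GRCm38 chr15:102936757-102938609) was at 7.72, 3.23 and 1.98 FPKM in control cords at P2, P6 and P10, from 323, 135 and 83.0 estimated fragments. In SMA cords it was at 3.49, 4.03 and 2.65 FPKM. Its highest value was thus that of the P2 controls, and SMA cords stayed between 2.65 and 4.03 FPKM.

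The Hoxd10 and Hoxd11 row (Hoxd10 at chr2:74691924-74695105, Hoxd11 at chr2:74679557-74687016) was at 36.3, 14.3 and 11.8 FPKM in control cords at P2, P6 and P10. SMA cords had 20.4, 25.7 and 18.9 FPKM. Again the P2 controls were highest, and at P6 and P10 the order of the genotypes was the opposite of that at P2.

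Hoxa10 (chr6:52231197-52240854) had the same order, at 21.8, 8.92 and 9.17 FPKM in control and 14.8, 15.3 and 12.5 FPKM in SMA cords. Hoxc11 (chr15:102954427-102957708) was at 5.73, 1.90 and 1.67 FPKM in control and 2.86, 3.48 and 2.22 FPKM in SMA cords. Hoxa11 was at 1.76, 0.775 and 0.825 FPKM in control and 1.17, 1.51 and 0.917 FPKM in SMA cords. The antisense gene Hoxa11os overlaps Hoxa11, and whether strand was used in counting is not given in the sources used here.

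Hoxc13 was the exception in this set after P2, at 2.65, 1.63 and 0.865 FPKM in control and 1.51, 1.40 and 0.866 FPKM in SMA cords. It was highest in P2 controls and nearly the same in the 2 genotypes at P10. Hoxb13, at 0.199 to 1.24 FPKM, was highest in SMA cords at P6, and the other rows of paralog groups 12 and 13 stayed under 0.41 FPKM.

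Promoters of 3 genes from rows that shared this order are shown with that of Hoxb8, the steady gene, for comparison. Hoxd10 and Hoxd11 were read only in their joined row, so the order is not known for each of them. They are the 250 bases before a RefSeq transcription start on GRCm38.p6, 5' to 3' on the gene's strand, and 22 of 39 Hox genes had an entry. For Hoxa10 and Hoxd11, which have 2 starts, the one inside the annotated gene is shown. Capitals mark matches on either strand to 1 of 4 motifs: TGATNNAT (Hox with Pbx), TGACAG (Meis), TTTATNG (Cdx) and AGGTCA followed after 5 bases by a second AGGTCA (a retinoic acid receptor repeat).
Hoxa10, chr6:52234940-52235189, - strand: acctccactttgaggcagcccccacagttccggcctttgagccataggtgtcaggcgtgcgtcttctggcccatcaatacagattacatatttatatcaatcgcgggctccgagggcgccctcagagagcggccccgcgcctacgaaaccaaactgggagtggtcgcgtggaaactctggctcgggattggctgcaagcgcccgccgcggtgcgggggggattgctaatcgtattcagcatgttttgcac
Hoxd10, chr2:74691641-74691890, + strand: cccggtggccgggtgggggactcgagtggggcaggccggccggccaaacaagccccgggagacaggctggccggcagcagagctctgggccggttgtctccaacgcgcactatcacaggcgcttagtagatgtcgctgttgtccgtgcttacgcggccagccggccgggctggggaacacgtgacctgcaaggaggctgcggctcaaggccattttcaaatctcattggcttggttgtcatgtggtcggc
Hoxd11, chr2:74682073-74682322, + strand: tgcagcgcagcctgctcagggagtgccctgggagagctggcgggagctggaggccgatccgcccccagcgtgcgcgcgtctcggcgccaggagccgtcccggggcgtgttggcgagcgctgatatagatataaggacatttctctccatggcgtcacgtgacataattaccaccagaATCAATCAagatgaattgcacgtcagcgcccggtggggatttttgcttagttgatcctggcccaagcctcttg
Hoxb8, chr11:96281655-96281904, + strand: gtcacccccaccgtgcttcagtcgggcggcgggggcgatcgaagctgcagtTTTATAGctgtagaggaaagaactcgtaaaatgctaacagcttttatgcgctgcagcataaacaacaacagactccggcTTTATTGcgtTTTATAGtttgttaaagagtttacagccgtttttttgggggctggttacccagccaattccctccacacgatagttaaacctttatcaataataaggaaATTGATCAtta
Over the 300 bases from 250 before to 50 after a start, the Hox with Pbx letters stood in 4 of 24 Hox promoters (16.7%; Hoxa2, Hoxb1, Hoxb8 and Hoxd11) and in 8.85% of 32851 promoters. The Cdx letters stood in those of Hoxb8 and Hoxd4 (8.33%, beside 10.9% of all), and the Meis letters in those of Hoxa2 and Hoxa3 (8.33%, beside 19.2%). The retinoic acid repeat was in none of the 24 and in 3 of all promoters. Hoxa10 and Hoxd10 hold none of these letters in the stretch shown, which says only that the letters are not in this window. Hox promoters held a median of 14.5 CpG dinucleotides per 300 bases, beside 7 over all promoters. Those printed for Hoxa10, Hoxd10 and Hoxd11 held 21, 22 and 25, and that of Hoxb8 held 13. The starts not shown of Hoxa10 and Hoxd11 held 12 and 4, so the count depends on the start chosen.

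The bands used next, paralog groups 1 to 3, 4 to 9 and 10 to 13, were drawn after these values were seen, so their sums are descriptions without a test. Rows of paralog groups 10 to 13 summed to 77.2, 32.1 and 26.7 FPKM in control cords at P2, P6 and P10 and to 44.9, 53.0 and 38.4 FPKM in SMA cords. The SMA sum was 58.1%, 165% and 144% of that in control cords of the same age. Control cords at P10 had 34.6% of their P2 sum and SMA cords 85.6%.

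Rows of paralog groups 4 to 9 summed to 188, 153 and 141 FPKM in control and 173, 153 and 148 FPKM in SMA cords, so that SMA was 92.3%, 100.2% and 105% of control. The ratio of the tail-end band to the middle band was 0.411, 0.211 and 0.189 in control and 0.259, 0.346 and 0.260 in SMA cords. With the joined rows left out the ratio was 0.382, 0.190 and 0.152 in control and 0.232, 0.287 and 0.198 in SMA cords, in the same order. A ratio of 2 Hox sums within a group does not depend on how the groups were scaled to each other. In bulk RNA, fewer cells of a type and less RNA per cell cannot be told apart, and whole cords give an average over all segments.

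**Figure D2:**
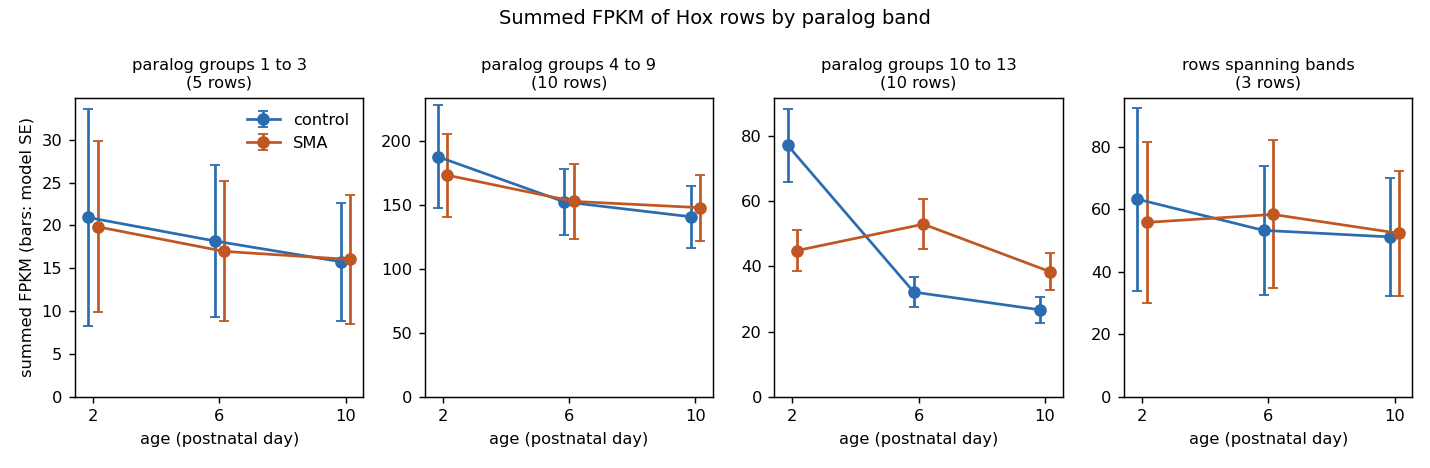
Summed FPKM of Hox rows by paralog band against age (postnatal day), control in blue and SMA in orange; bars are the model's standard error, with row errors added as if independent. For paralog groups 10 to 13 the bars of the 2 genotypes do not overlap at P2 (control 77.2, SMA 44.9 FPKM). In the opposite order, they do not overlap at P6 (32.1 and 53.0 FPKM) or P10 (26.7 and 38.4 FPKM). In the other panels they overlap at every age. The bands were drawn after the values were seen, so a gap between bars is a description and not a test.

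The first test asked which rows differed between SMA and control cords of the same age. Each log2 ratio of FPKM was set against its model error in a z test, two-sided, with Benjamini-Hochberg adjustment over every locus at 1 FPKM or more in a compared group. At P2 none of 21 tested Hox rows passed an adjusted p of 0.05, beside 0.126% of 19114 loci, and 1 had an unadjusted p under 0.05, beside 0.743% of all loci. The z values of all loci were narrow, with a robust SD of 0.237 to 0.470 over the comparisons where errors that match the scatter give 1. The model errors were thus wide, and a row that did not pass is not shown to be level. The median Hox log2 ratio was -0.18, beside -0.0059 over all tested loci. Hoxc12 (-1.15 ± 0.52, adjusted p = 1.00) and Hoxc11 (-1.004 ± 0.74) were the lowest, and Hoxd8 (0.35 ± 1.72) and Hoxa4 (0.17 ± 2.30) the highest. Hoxd10 with Hoxd11 was at -0.83 ± 0.51 and Hoxa10 at -0.56 ± 0.49. Counted over all 28 rows with no filter, SMA was below control in 20. These included 9 of the 10 rows of paralog groups 10 to 13 and 5 of the 10 of groups 4 to 9. Over all tested loci the share below control lay between 48.1% and 52.8%, the percentiles of Hoxa7 (-0.018) and Hoxa9 (0.013).

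At P6 none of 22 Hox rows passed, beside 0.0458% of 19631 loci, and none had an unadjusted p under 0.05. The median was 0.11, beside 0.066 over all tested loci. The highest were Hoxa11 (0.97 ± 1.23) and Hoxc11 (0.88 ± 0.81), followed by Hoxd10 with Hoxd11 (0.85 ± 0.52), Hoxd9 (0.84 ± 0.67) and Hoxa10 (0.78 ± 0.51). The lowest were Hoxa5 with Hoxa6 (-0.36 ± 0.86) and Hoxc8 (-0.25 ± 2.12). Without a filter SMA was above control in 16 of 28 rows and in 6 of 10 rows of paralog groups 10 to 13. It was below control in 42.9% of the 28 rows. Over all tested loci that share lay between 29.1% and 50.5%, the percentiles of Hoxd3 with Hoxd4 (-0.089) and Hoxb7 with Hoxb9 (0.068). These counts are thus not particular to Hox rows. Hoxa11 and Hoxb13 passed the filter only through their SMA value.

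At P10 none of 19 Hox rows passed, beside 0.0397% of 20157 loci, and none had an unadjusted p under 0.05. The median was 0.13, beside 0.044. Hoxd10 with Hoxd11 (0.68 ± 0.52) and Hoxa10 (0.45 ± 0.51) were highest, and Hoxd8 (-0.26 ± 1.38) and Hoxb8 (-0.20 ± 0.86) lowest. The group labelled SMA was above control in 17 of 28 rows and in 7 of 10 rows of paralog groups 10 to 13. It was below control in 39.3% of the 28 rows. Over all tested loci that share lay between 41.6% and 45.9%, the percentiles of Hoxb2 (-0.023) and Hoxc8 (0.013). The count over the 28 rows was thus near that of all loci.

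**Figure D3:**
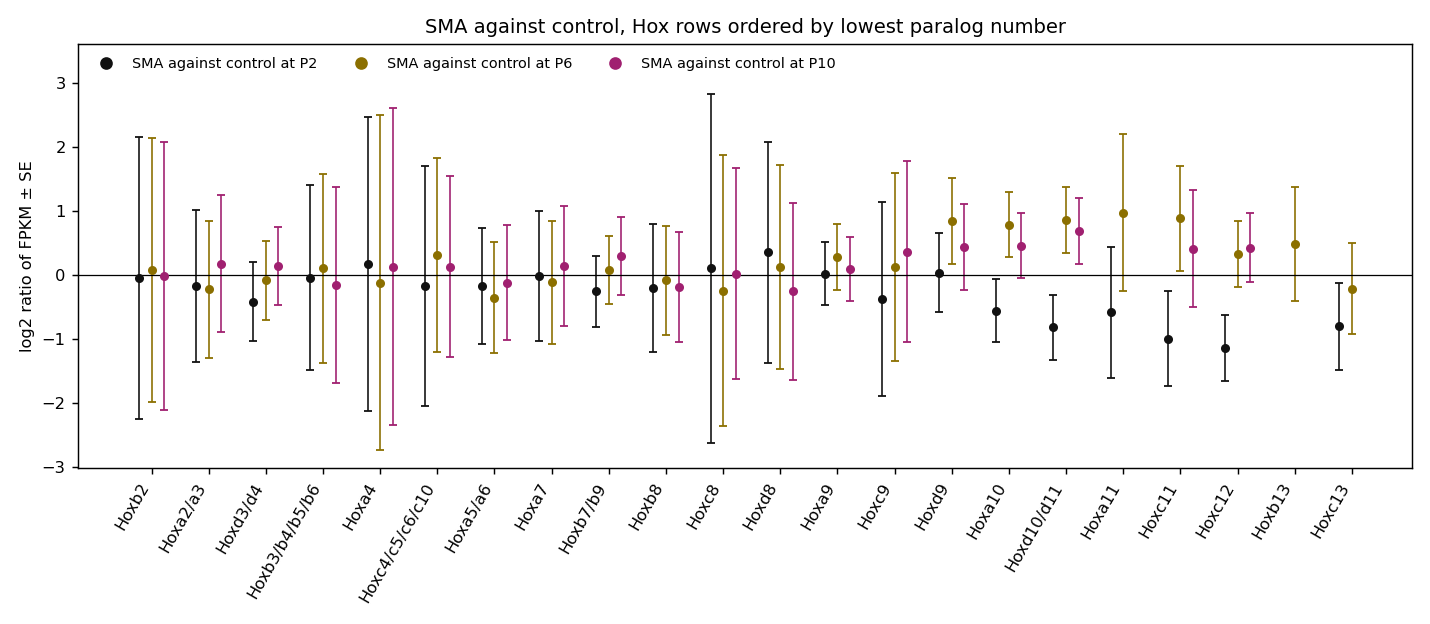
Log2 ratio of FPKM, SMA to control, at P2 (black), P6 (olive) and P10 (magenta) for the Hox rows tested at each age, ordered by lowest paralog number; bars are standard errors from the deposited intervals. Rows up to Hoxc9 lie between -0.42 (Hoxd3/d4 at P2) and 0.36 (Hoxc9 at P10). Their bars range from short (Hoxa9, 0.49 at P2) to long (Hoxc8, 2.73 at P2). Hoxa10, Hoxd10/d11, Hoxc11 and Hoxc12 are below 0 at P2 (-0.56 to -1.15) and above it at P6 and P10.

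The second test compared ages within a genotype. Rows under 1 FPKM in 1 of the 2 groups passed the filter only through the group where they are high, so their ratios had to differ: Hoxa11 and Hoxc13 in P10 against P2 of both genotypes and in SMA P10 against P6, Hoxa11 in control P6 against P2, Hoxc13 in control P10 against P6, and Hoxb13 in both SMA comparisons with P6. The comparisons with control at P2 share that group with the genotype comparison at P2, so the high P2 control values of the lumbosacral rows enter both. In control cords at P10 against P2, none of 21 Hox rows passed, beside 0.631% of 19956 loci. An unadjusted p under 0.05 was found for 5, Hoxc13 among them, beside 3.51% of all loci. Hoxc12 was nearest to the threshold (log2 ratio -1.97 ± 0.55, adjusted p = 0.0502), and it was also the only one of the 28 rows whose 2 deposited intervals did not overlap, beside 1.36% of the tested loci. It passed with joined rows left out (adjusted p = 0.0494), with a minimum of 5 FPKM (0.0277) and on the deposited counts (0.0273), where the Hoxd10 and Hoxd11 row passed too (0.0317).

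The next lowest ratios of control P10 to P2 were Hoxc11 (-1.78 ± 0.85), Hoxd10 with Hoxd11 (-1.62 ± 0.54, adjusted p = 0.239), Hoxc13 (-1.62 ± 0.76) and Hoxa10 (-1.25 ± 0.49). Hoxd8 (0.66) and Hoxc8 (0.0055 ± 2.58) were highest. The median of the tested Hox rows was -0.49, beside 0.020 over all loci. It includes Hoxa11 and Hoxc13, which passed the filter only through control P2. Without a filter, control P10 was below control P2 in 24 of 28 rows and in 10 of 10 rows of paralog groups 10 to 13. Over all tested loci the share below lay between 38.6% and 48.7%, the percentiles of Hoxa9 (-0.12) and Hoxc8 (0.0055).

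Most of that difference was already there at P6. In control P6 against P2, none of 21 rows passed, beside 0.112% of 19622 loci, and 4 had an unadjusted p under 0.05, beside 0.637% of all loci: Hoxa10 (-1.29 ± 0.50), Hoxd10 with Hoxd11 (-1.35 ± 0.53), Hoxc12 (-1.26 ± 0.51) and Hoxc11 (-1.60 ± 0.79). Hoxd8 (0.12) and Hoxc8 (0.097) were highest. In control P10 against P6 none of 20 passed, beside 0.0751% of 19974 loci, and none had an unadjusted p under 0.05. Hoxc13 (-0.91 ± 0.76) and Hoxc12 (-0.71 ± 0.53) were lowest, and Hoxd8 (0.54) and Hoxd9 (0.44) highest.

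SMA cords had small age ratios in the same rows. In SMA P10 against P2 none of 21 rows passed, beside 0.0602% of 19938 loci, and none had an unadjusted p under 0.05. Hoxc12 was at -0.40 ± 0.51, Hoxd10 with Hoxd11 at -0.11 ± 0.49 and Hoxa10 at -0.24 ± 0.50. The lowest were Hoxb2 (-0.82) and Hoxc13 (-0.81 ± 0.73), and the highest the row of Hoxd3 and Hoxd4 (0.39 ± 0.61) and Hoxc9 (0.24). The P10 value here is that of the group whose Smn1 goes against its label.

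In the SMA group at P6, Smn1 was listed at 0, as its label gives. The P2 group it is set against here needs care. In SMA cords at P2 the myelin genes listed below summed to 3694 FPKM, above the 2179 FPKM of SMA cords at P6. That P2 group also enters SMA P10 against P2. In SMA P6 against P2 none of 22 rows passed, beside 0.0312% of 19251 loci, and none had an unadjusted p under 0.05. Hoxb13 (1.66 ± 1.07) and Hoxa11 (0.37) were highest, and Hoxa4 (-0.67) and Hoxb2 (-0.33) lowest. In SMA P10 against P6 none of 22 passed, beside 0.0398% of 20087 loci, and 1, Hoxb13 (-2.64 ± 1.24), had an unadjusted p under 0.05, beside 0.324% of all loci. Hoxb13 passed the filter only through its SMA value at P6 and rests on 3.35 to 21.4 estimated fragments per group. Hoxa11 (-0.72) was the next lowest, and Hoxc9 (0.19) and Hoxa2 with Hoxa3 (0.19) were highest.

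**Figure D4:**
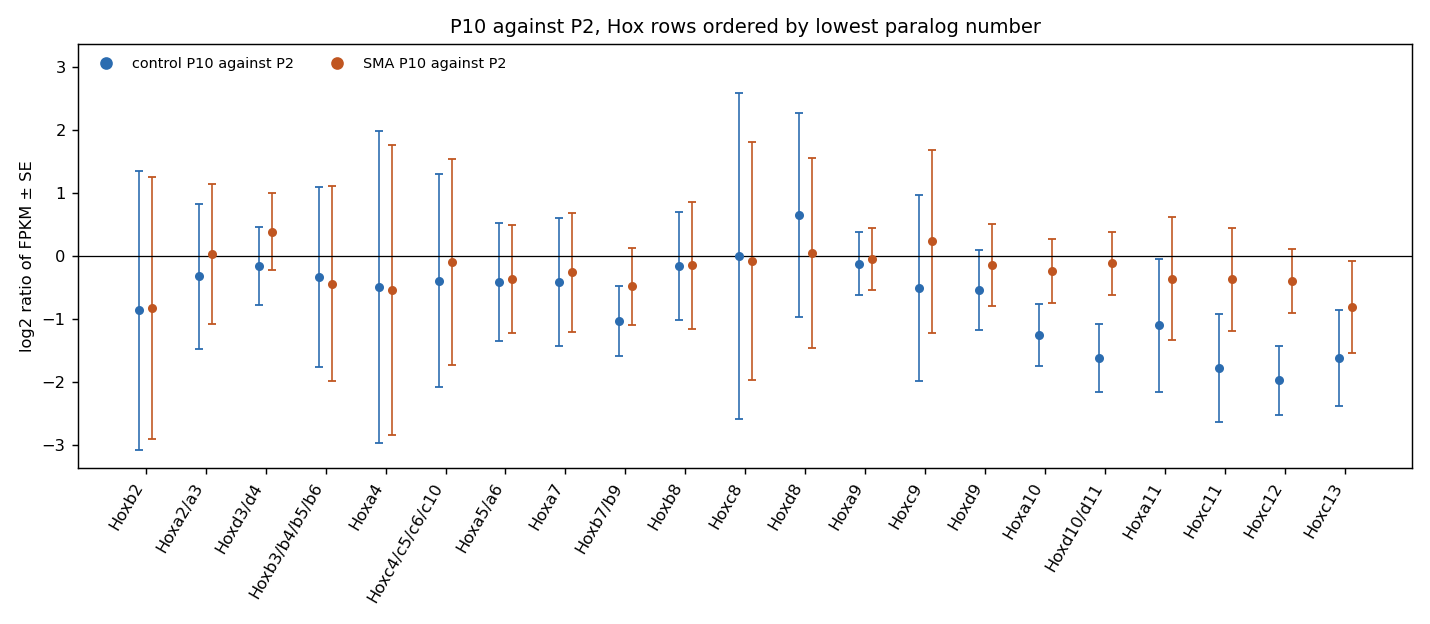
Log2 ratio of FPKM, P10 to P2, in control (blue) and SMA (orange) cords for the tested Hox rows ordered by lowest paralog number; bars are standard errors from the deposited intervals. For Hoxa10, Hoxd10/d11, Hoxc11 and Hoxc12 the control ratios lie between -1.25 and -1.97 and the SMA ratios between -0.11 and -0.40; Hoxa11 and Hoxc13 are plotted but passed the filter only through P2.

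The difference between the genotypes' courses was tested directly, as the change of the log2 ratio of SMA to control from P2 to P10. None of 21 Hox rows passed, beside 0.0574% of 20916 loci, and 2 had an unadjusted p under 0.05, beside 0.894% of all loci: Hoxc12 (1.57 ± 0.75, adjusted p = 1.00) and Hoxd10 with Hoxd11 (1.51 ± 0.73, adjusted p = 1.00). Hoxd8 (-0.61) and the row of Hoxb3 to Hoxb6 (-0.11) were lowest. An alternative chosen after seeing the data put P6 in place of P10, which left out the group whose Smn1 goes against its label. It still used SMA cords at P2, where the myelin genes listed below summed to 3694 FPKM. That was above the 2179 FPKM of SMA cords at P6 and the 288 FPKM of control cords at P2. With P6, the change was 1.68 ± 0.73 for Hoxd10 with Hoxd11, 1.88 ± 1.10 for Hoxc11, 1.47 ± 0.73 for Hoxc12 and 1.34 ± 0.70 for Hoxa10. None of 22 passed there either, beside 0.0344% of 20371 loci, and 2 had an unadjusted p under 0.05, beside 0.358%. The different course of lumbosacral Hox rows in the 2 genotypes is therefore a pattern of values that no row carries past the threshold.

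A fit over all 6 groups (limma on log2 of FPKM + 1, with age and genotype as terms) gave no Hox row called for genotype across ages, beside 0.00455% of 21962 loci, and none of 22 had an unadjusted p under 0.05, beside 2.05% of all loci. The errors of this fit come from the scatter of the genotype difference over ages, or of the age difference over genotypes. They do not come from the intervals and do not measure the spread between animals. The median Hox difference for genotype was 0.013, beside 0.029 over all loci. Hoxd9 (0.36 ± 0.15) and Hoxd10 with Hoxd11 (0.22) were highest, and Hoxc13 (-0.22 ± 0.15) and Hoxa5 with Hoxa6 (-0.20 ± 0.10) lowest. Because the difference of the Hoxd10 and Hoxd11 row had 1 sign at P2 and the other later, its value depended on the ages in the fit: 0.72 without P2, -0.081 without P6 and 0.0051 without P10.

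For age across genotypes, limma called none of 22 Hox rows in P10 against P2, beside 0.0137% of 21962 loci, in P6 against P2, beside 0.00911%, or in P10 against P6, beside 0.0137%. An unadjusted p under 0.05 was found for 8, 4 and 3 rows, beside 15.4%, 4.24% and 6.23% of all loci. For P10 against P2 the median was -0.34, beside 0.043 over all loci, and the smallest p belonged to Hoxb2 (-0.73 ± 0.11, adjusted p = 0.283) and Hoxb7 with Hoxb9 (-0.74 ± 0.15, adjusted p = 0.283). Both were lower at P10 than at P2 in each genotype. The largest difference, Hoxc12 (-0.92 ± 0.33), came mainly from control cords.

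The other transcripts of the clusters were read from a list of 22 symbols, of which 18 had a row. None was called in any comparison. At P2, SMA was below control in 13 of 13 tested rows outside the Hox rows (median -0.34), at P6 in 6 of 14, and at P10 in 2 of 13. Hoxb3os, transcribed from the strand opposite Hoxb3, was the highest of them outside the Hox rows, with a mean of 8.99 FPKM. Hotair, a noncoding RNA from the HoxC cluster between Hoxc11 and Hoxc12, was at 2.04, 0.808 and 0.733 FPKM in control and 1.57, 1.10 and 1.12 FPKM in SMA cords by age. Hotairm1, which starts next to Hoxa2 and lies in a joined row with 4 other gene models, was at 11.4, 4.14 and 4.89 FPKM in control and 9.57, 8.67 and 5.25 FPKM in SMA cords. Hotairm1 thus shared the high P2 control value, although it lies at the head end of its cluster.

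The Pbx, Meis and Pknox cofactors summed to 155, 127 and 99.5 FPKM in control and 144, 129 and 131 FPKM in SMA cords at P2, P6 and P10. All 9 were tested and none was called in any comparison. In control P10 against P2, 9 of 9 were lower (median -0.56), and in the group labelled SMA at P10, 9 of 9 were above control (median 0.37), while 7 of 9 were below control at P2 (median -0.070). Meis2, the highest of them by mean, was at 32.0, 24.3 and 15.5 FPKM in control and 28.4, 23.3 and 22.6 FPKM in SMA cords, and Pbx3, the next, at 27.5, 20.1 and 14.5 FPKM in control and 27.9, 20.0 and 21.9 FPKM in SMA cords. Their genotypes were close at P2 and P6 and apart at P10.

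Of 17 Polycomb subunits, which keep Hox genes silent, none was called, and in control P10 against P2 8 of 17 were higher and 9 lower (median -0.0074). Rbbp7 (mean 33.1 FPKM) and Rbbp4 (19.9 FPKM) were highest. Of 9 Trithorax and H3K27 demethylase genes, which oppose that silencing, none was called, and 4 were higher and 5 lower (median -0.18); Ash2l and Dpy30 were highest, at means of 19.6 and 18.9 FPKM. Of the upstream regulators, Cdx1 and Cdx2, which start Hox expression in the embryo, were listed at 0 in every group, and none of the 5 tested was called; Ctcf, which insulates the clusters' domains, and Aldh1a2, which makes retinoic acid, were highest at means of 12.8 and 6.69 FPKM. Of 12 motor column and pool genes none was called; Gfra1 (mean 19.7 FPKM) and Foxp1, a Hox cofactor of limb motor neurons read here in a joined row (17.0 FPKM), were highest.

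Several marker lists differed between the groups beside these Hox values. The 10 oligodendrocyte and myelin genes, none at 0, summed to 288, 1940 and 8099 FPKM in control and 3694, 2179 and 4525 FPKM in SMA cords at P2, P6 and P10. Their sum was lowest where the lumbosacral Hox sum was highest. The 7 dorsal root ganglion markers summed to 12.8, 8.58 and 4.77 FPKM in control and 8.12, 11.96 and 5.69 FPKM in SMA cords, with 1 marker at 0 in SMA cords at P2 and none elsewhere. Most of that sum was Pou4f1 (mean 7.07 FPKM), which spinal interneurons also express. The other 6 ganglion markers summed to 0.587, 1.84 and 1.08 FPKM in control and 0.441, 5.28 and 0.323 FPKM in SMA cords, and at P10 6 of 6 were lower in SMA. The 8 motor neuron markers, none at 0, summed to 70.0, 66.9 and 68.3 FPKM in control and 54.6, 58.8 and 48.6 FPKM in SMA cords, lower in SMA at each age. The part of these cells in the Hox values was not tested.

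Calls in the marker lists were few outside myelin. In SMA against control at P2, the myelin genes Cldn11, Ermn, Mobp, Mag and Mal were called. In control P10 against P2, Cnp, Mbp and Opalin were among the further myelin genes called, and so were Pmp22 and Sox10 of the Schwann cell list. Ucp1 of the brown fat list was called in SMA P10 against P6 and against P2. The 6 brown fat genes summed to 12.3, 5.99 and 2.74 FPKM in control cords at P2, P6 and P10. In SMA cords they summed to 23.5, 28.4 and 2.36 FPKM. The spinal neuron, astrocyte, microglia, hindbrain, meninges, muscle, bone, ganglion, motor neuron and blood lists held no called gene. Spinal neuron markers, led by Snap25 (mean 133 FPKM) and Slc6a5 (56.0 FPKM), summed to 296 to 336 FPKM and were present in every group. Astrocyte markers, led by Gfap (186) and Aqp4 (136 FPKM), summed to 292, 501 and 837 FPKM in control and 567, 538 and 633 FPKM in SMA cords by age, lowest in P2 controls.

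Meninges and fibroblast genes, led by Col1a2 (53.6) and Col3a1 (47.2 FPKM), summed to 138, 176 and 177 FPKM in control and 128, 211 and 94.0 FPKM in SMA cords. Globin and other blood genes, led by Hbb-bs (386) and Hba-a1 (302 FPKM), summed to 494 to 1006 FPKM. Muscle genes, led by Acta1 and Mylpf, summed to 12.1, 7.83 and 2.15 FPKM in control and 16.9, 7.88 and 2.40 FPKM in SMA cords, highest at P2 in both genotypes. Microglia genes, P2ry12 among them, summed to 52.9 to 69.1 FPKM, bone and cartilage genes, led by Col2a1 and Acan, to 2.76 to 5.61 FPKM, and Schwann cell genes to 69.0 to 435 FPKM. Among the 13 cell type lists, only the ganglion sum was below control in SMA cords at P2 and above it at both later ages, as paralog groups 10 to 13 were, and at P10 it was so through Pou4f1 alone. Outside the cell types, 5 of 6 lists had that order. They were the cofactors, the Polycomb and Trithorax lists, the upstream regulators and the other transcripts of the Hox clusters. The motor column genes did not have it. The median log2 ratio of SMA to control over all tested loci had the same order of signs (-0.0059 at P2, 0.066 at P6 and 0.044 at P10). The order is thus not particular to these lists. The Polycomb sums were 178, 156 and 168 FPKM in control and 175, 176 and 175 FPKM in SMA cords. The other transcripts of the Hox clusters had sums of 62.1, 42.4 and 37.7 FPKM in control and 49.5, 49.2 and 47.4 FPKM in SMA cords.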

How the data were processed

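The 2 deposited Cuffdiff tables used here give 1 value per group; a table by library, which the labels also name, was not analysed here. FPKM with its interval and the estimated counts per locus were computed by the authors. Per the submitters' processing notes, Bowtie2 2.2.4, TopHat2 2.1.1, Picard and Cufflinks 2.2.1 were used on GRCm38; the annotation release, strand setting and scaling are not given in the sources used here. How libraries were combined is unknown. The p-values of the z test rest on the model's errors, and those of limma on the scatter of the group values. Neither carries a check against the spread between animals.

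The standard error of a log ratio was computed from each interval (upper bound minus FPKM, divided by 1.96 FPKM). Loci at 1 FPKM or more in a compared group, with status OK, entered the z test. limma 3.58.1 in R 4.3.3 was run on log2(FPKM + 1) of the 6 groups. Adjustment was by Benjamini-Hochberg over all loci tested. Both tests were checked on simulated data. Tables were handled in Python 3.11.15.

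Members and the 19 gene lists were chosen with earlier results of these data known. Named were each paralog group's highest and each cluster's lowest row, every joined row, the 2 highest and 2 lowest log2 ratios per comparison, and of other lists the called genes or otherwise the 2 highest. Promoters and microRNAs are from RefSeq (GRCm38.p6), 3' UTRs from GENCODE M21. Some genes that this rule covers are not reported here. The alternatives used the deposited counts, other minimum FPKM values and pseudocounts, centred groups, no joined rows, and another reading of the interval.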

Additional observations from a re-analysis of the deposited data

How the results depend on the processing

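No paired analysis was possible because the deposited columns carry no replicate number and each group is 1 combined value; for the same reason no library could be left out. The number of Hox rows called was 0 under every setting except the following. With each interval read as that of 1 library and so narrowed for 3 libraries, 1 Hox row was called in SMA against control at P2 (Hoxc12, adjusted p = 0.0239, beside 123 loci in all), 3 in control P6 against P2 (beside 98), 6 in control P10 against P2 (beside 920) and 2 in the change from P2 to P10 (beside 163). In control P10 against P2, 2 were called on the deposited counts (beside 216 loci), 1 with a minimum of 5 FPKM (beside 131) and 1 with joined rows left out (beside 122), where fewer loci were tested; all loci called there ranged from 108 to 920, with 126 in the form reported. Signs turned for Hoxc8 in control P10 against P2 on counts (-0.023), for the row of Hoxb3 to Hoxb6 in the change from P2 to P10 on counts (0.57) and with P6 in place of P10 (0.14), for Hoxd10 with Hoxd11 across ages without P6 (-0.081), and for Hoxd3 with Hoxd4 in P6 against P2 across genotypes on counts (-0.019); the cause was not tested. Another 300 single-row values kept their sign and side of the threshold and 9 went past it. The sum of paralog groups 10 to 13 kept its order of genotypes at each age: SMA was 54.4%, 157% and 141% of control on counts and 59.7%, 153% and 131% without joined rows. Other sums did not. On counts at P6, SMA went from above to below control for HoxA (99.5%), HoxB (92.7%), HoxC (86.3%), paralog groups 4 to 9 (96.3%) and the rows spanning bands (84.4%). Without joined rows it did so for HoxB at P6 and P10 (97.4% and 88.8%), HoxC at P6 (98.0%) and HoxD at P10 (94.9%), while HoxD at P2 went from 74.3% to 118%, and paralog groups 1 to 3 turned at each age (102%, 104% and 86.5%). Model errors were wide: the upper interval arm had a median of 82.5% to 90.6% of the FPKM over Hox rows at 1 FPKM or more.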
